A study of Homo sapiens with 6 samples.

Results

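The 9 genes RRM1, RRM2, TK1, TYMS, DUT, DTYMK, DCK, CAD and UMPS, which encode enzymes that make or salvage the nucleotides used in DNA replication, were followed in HT-1080 cells, a human fibrosarcoma line known to carry an activating NRAS mutation. They were picked by gene name, and all 9 were present among the 26286 genes listed and among the 14839 genes tested. Cells were exposed for 48 h to 500 nM pimasertib, which blocks the kinases MEK1 and MEK2, to 2 µM palbociclib, which blocks the cell-cycle kinases CDK4 and CDK6, or to the vehicle DMSO. Each group had 2 RNA-seq libraries, 6 in all. The labels number the replicates without stating whether each was its own culture; p-values therefore cover just the spread among these libraries, which may be technical.

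DNA polymerases draw on pools of deoxynucleoside triphosphates that a cell refills mainly in S phase. Ribonucleotide reductase, built from the large subunit RRM1 and the small subunit RRM2, turns ribonucleoside diphosphates into the deoxy forms. Thymidylate is made from deoxyuridylate by TYMS, which uses folate, or salvaged from thymidine by TK1, and DTYMK phosphorylates it further. DUT removes dUTP before it can enter DNA and supplies deoxyuridylate to TYMS, while DCK salvages deoxycytidine. CAD and UMPS build the pyrimidine ring that both RNA and DNA need. Many S-phase genes of this pathway are known targets of E2F transcription factors, which RB holds back until CDK4/6 phosphorylates it.

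Depth and cell identity were as follows. Library totals ran from 13607490 to 17500655 counts, and 3 counts corresponded to 0.168 to 0.220 CPM (counts divided by the TMM-scaled library size in units of 1e+06). Of 8 mesenchymal markers, 7 were above 1 CPM on average, with COL1A2 below. Their summed level was 10068 to 13818 CPM in pimasertib, 4011 to 6147 CPM in palbociclib and 2554 to 3956 CPM in DMSO. The markers did not move together, as the log2 fold changes of the 7 tested ran from -0.86 to 6.06 in pimasertib against DMSO. The summed levels of 6 epithelial, 6 leukocyte and 5 endothelial markers reached at most 11.9, 0.980 and 2.07 CPM in any library. Of these markers only the epithelial KRT19 and CLDN4 were above 1 CPM on average, and KRT5, ESRP1 and PECAM1 were not listed at all. Mitochondrially encoded genes took 4.25% and 8.76% of counts in pimasertib, 4.57% and 6.31% in palbociclib and 3.21% and 5.67% in DMSO, higher in replicate 2 of each group. The members were mostly lower in replicate 2, in 9 of 9 in pimasertib, 7 of 9 in palbociclib and 8 of 9 in DMSO, against 51.2%, 48.5% and 52.6% of all tested genes. The part of these differences between groups and between replicates in the results was not tested.

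Transcripts for ribonucleotide reductase and for the thymidylate steps were lower under both drugs, though the palbociclib calls of DUT and DTYMK were the least stable. RRM1, RRM2, TK1, TYMS, DUT and DTYMK passed the test in each drug against DMSO, while DCK, CAD and UMPS passed in neither. That fit held no replicate block, as the labels do not pair the replicates. With the replicate number added as a block, CAD and UMPS passed in both drugs. The largest falls were those of RRM2, 5.22-fold in pimasertib and 4.47-fold in palbociclib, and of TYMS in palbociclib, 4.26-fold. All 9 log2 fold changes were negative in each drug. With edgeR's quasi-likelihood test at an adjusted p under 0.05, 6 of 9 members were lower in pimasertib, where 11.7% of all tested genes were called lower. In palbociclib 6 of 9 were lower, against 2.44% of all tested genes. None rose, beside 11.1% of all genes called higher in pimasertib and 1.11% in palbociclib. In the plain order of the libraries, 8 of 9 had both pimasertib libraries below both DMSO libraries, against 32.6% of all genes, and 8 of 9 had both palbociclib libraries below both DMSO libraries, against 23.3%. The median log2 fold change of the members was -1.28 in pimasertib and -0.92 in palbociclib, beside 0.0047 and 0.0049 over all tested genes. Both comparisons share the DMSO libraries. In bulk RNA, fewer cells in S phase and less of each transcript per cell cannot be told apart.

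**Figure D1:**
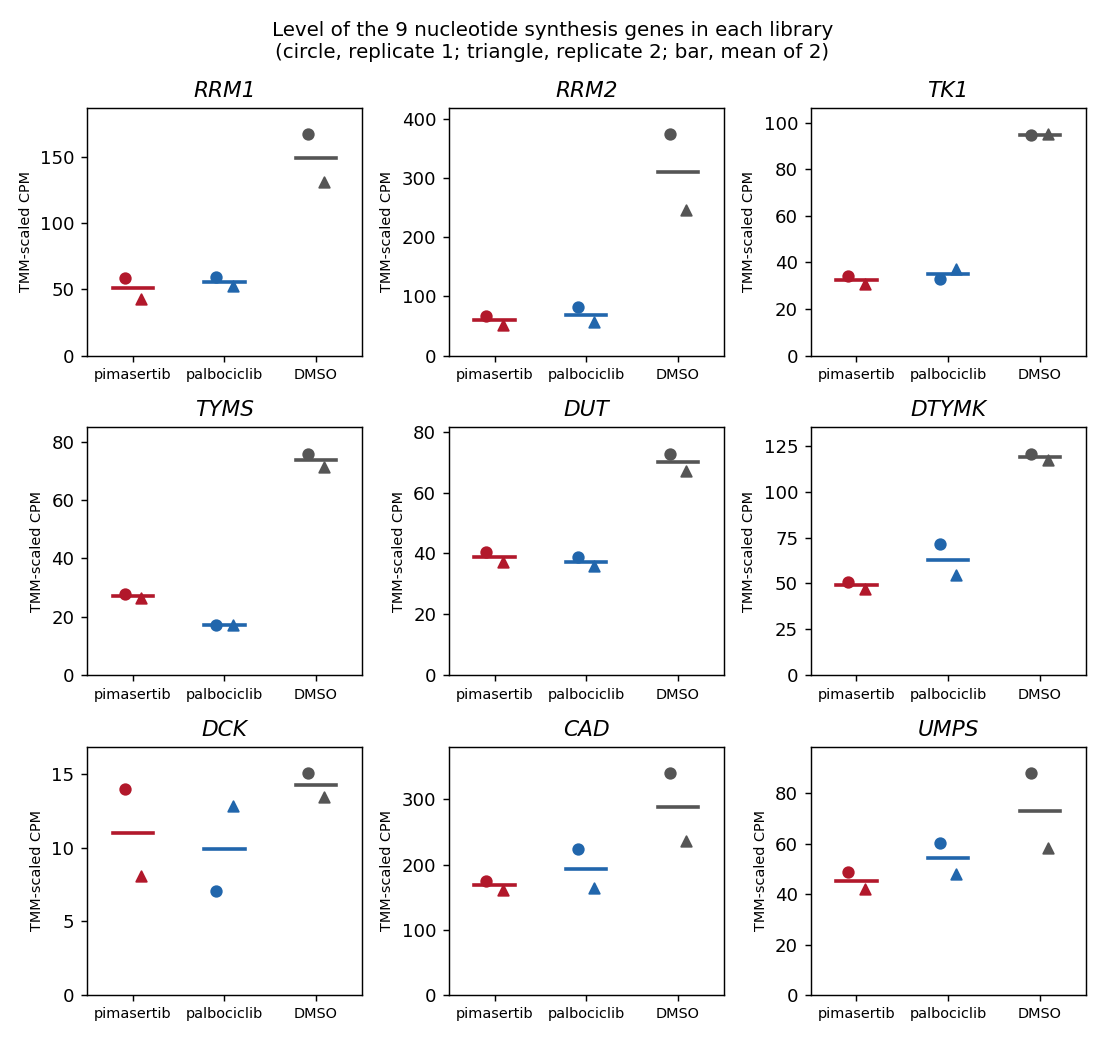
Level of each member in the 6 libraries, as TMM-scaled CPM on axes that start at 0, with circles for replicate 1, triangles for replicate 2 and a bar at the mean of 2. For RRM1, RRM2, TK1, TYMS, DUT and DTYMK all 4 drug libraries lie below both DMSO libraries, while DCK overlaps between pimasertib and DMSO and UMPS between palbociclib and DMSO.

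Because most members moved together, the 250 bases before their annotated starts were read from the RefSeq promoter table on GRCh38.p14, where all 9 genes matched with 14 start sites. The E2F core was searched as TTCCCGC, with the variants TTCGCGC, then TTGCCGC, and also TTGGCGC, and the CCAAT box as CCAAT, on both strands, and the 2 motifs can share letters. An E2F core lay before at least 1 start of 6 of 9 members, against 13.0% of 27305 genes, and of 11 of 21 matched replication fork genes. The 27305 genes include genes not tested here, and a gene with more starts has more windows to match. By window, 6 of the 14 member windows held an E2F core, against 10.9% of 35116 windows. The 6 genes were RRM1, RRM2, TK1, TYMS, DUT and DCK. So DCK, which did not pass the test, held the motif and DTYMK, which did pass, did not. A CCAAT box lay before 5 of 9 members, against 37.0% of all genes, and in 6 of 14 member windows, against 32.0% of all windows. The 6 windows shown next cover RRM2, TK1, TYMS and DUT, which fell, and DCK and CAD, which did not pass. The RRM2 window shown holds 3 CCAAT boxes, the most among the 14 member windows. Of all 35116 windows, 2.93% hold 3 or more, a share for 1 window and not for the richest of 14. The window of the other RRM2 start holds 1. GC boxes (GGGCGG), the CHR element (TTTGAA) and E-boxes (CACGTG) were searched likewise, and lay before 7, 3 and 1 of 9 members, against 46.2%, 16.1% and 7.73% of all genes. Capitals mark the E2F core and the CCAAT box, each line runs towards the start site, and a match describes letters only.
RRM2, chr2:10122489-10122738, plus strand: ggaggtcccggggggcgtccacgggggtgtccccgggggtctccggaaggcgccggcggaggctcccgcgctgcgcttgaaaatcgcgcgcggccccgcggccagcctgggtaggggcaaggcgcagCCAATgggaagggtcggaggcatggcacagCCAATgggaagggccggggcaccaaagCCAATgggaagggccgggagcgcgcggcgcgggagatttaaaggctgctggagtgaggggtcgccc
TK1, chr17:78187053-78187302, minus strand: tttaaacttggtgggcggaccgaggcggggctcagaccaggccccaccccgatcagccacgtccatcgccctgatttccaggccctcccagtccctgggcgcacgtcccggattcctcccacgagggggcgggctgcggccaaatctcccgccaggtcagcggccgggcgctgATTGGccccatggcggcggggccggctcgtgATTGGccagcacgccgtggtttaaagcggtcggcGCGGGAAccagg
TYMS, chr18:657403-657652, plus strand: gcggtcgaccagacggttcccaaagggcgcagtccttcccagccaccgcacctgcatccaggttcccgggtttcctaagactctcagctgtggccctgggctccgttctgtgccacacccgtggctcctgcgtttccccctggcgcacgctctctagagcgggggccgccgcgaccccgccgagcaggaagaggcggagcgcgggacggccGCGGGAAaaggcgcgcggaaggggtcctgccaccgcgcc
DUT, chr15:48331947-48332196, plus strand: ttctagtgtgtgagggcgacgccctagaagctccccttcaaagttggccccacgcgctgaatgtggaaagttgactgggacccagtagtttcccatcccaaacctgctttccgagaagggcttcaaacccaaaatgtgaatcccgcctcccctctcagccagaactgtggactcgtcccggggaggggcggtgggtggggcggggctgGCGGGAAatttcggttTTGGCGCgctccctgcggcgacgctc
DCK, chr4:70993399-70993648, plus strand: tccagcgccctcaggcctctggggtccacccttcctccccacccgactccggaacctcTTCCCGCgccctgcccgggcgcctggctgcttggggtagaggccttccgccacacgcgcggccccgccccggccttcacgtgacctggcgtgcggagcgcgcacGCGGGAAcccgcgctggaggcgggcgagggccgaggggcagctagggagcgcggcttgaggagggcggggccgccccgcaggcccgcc
CAD, chr2:27217119-27217368, plus strand: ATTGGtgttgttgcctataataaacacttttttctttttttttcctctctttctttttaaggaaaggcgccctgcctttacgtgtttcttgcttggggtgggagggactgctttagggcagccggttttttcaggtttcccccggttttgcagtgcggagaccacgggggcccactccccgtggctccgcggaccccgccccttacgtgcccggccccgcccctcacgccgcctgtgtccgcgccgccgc
The RRM2 window shown holds no E2F core, and the 1 found for RRM2 lies before the other annotated start, 192 bases upstream of it. In the TK1 window shown the core begins 12 bases before the start, whereas the window of the other TK1 start holds neither an E2F core nor a CCAAT box. In TYMS the core begins 39 bases before the start. The DUT window shown holds 2 cores at 42 and 26 bases, whereas the windows of the other 3 DUT starts hold none. Transcripts from different starts were not separated by the gene-level counts.

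Ribonucleotide reductase showed the largest fall of any member through its small subunit. RRM2 (ENSG00000171848, on the plus strand of chromosome 2 from 10262455 to 10271545, GRCh37, as for all genes) stood at 66.4 and 52.4 CPM in pimasertib, 81.5 and 57.3 CPM in palbociclib and 374 and 246 CPM in DMSO. The drug libraries lay between 52.4 and 81.5 CPM, below both DMSO libraries. The log2 fold change was -2.38 (SE 0.29; adjusted p = 4.10e-04) in pimasertib and -2.16 (SE 0.29; adjusted p = 0.00294) in palbociclib by edgeR's quasi-likelihood test. RRM1, the subunit that holds the active site (ENSG00000167325, on the plus strand of chromosome 11 from 4115937 to 4160106), was at 58.6 and 43.0 CPM in pimasertib, 59.4 and 52.3 CPM in palbociclib and 167 and 131 CPM in DMSO. Its log2 fold change was -1.55 (SE 0.23; adjusted p = 0.00134) in pimasertib and -1.42 (SE 0.23; adjusted p = 0.00756) in palbociclib. Dropping any 1 library left all 4 RRM1 and RRM2 calls in place.

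Per gene length, RRM2 stood above RRM1 in DMSO and near it under the drugs. The ratio of RRM2 to RRM1, from the FPKM values the authors deposited, was 0.976 and 1.05 in pimasertib, 1.18 and 0.944 in palbociclib and 1.93 and 1.61 in DMSO. RRM2B, a small subunit used outside S phase and in DNA damage, behaved less clearly. It was at 115 and 79.5 CPM in pimasertib, 112 and 131 CPM in palbociclib and 159 and 150.4 CPM in DMSO. All drug libraries lay below DMSO, but neither difference passed, at -0.66 (SE 0.23; adjusted p = 0.0663) in pimasertib and -0.35 (SE 0.23; adjusted p = 0.481) in palbociclib. With DESeq2 the pimasertib difference passed (adjusted p = 0.0457). The FPKM ratio of RRM2 to RRM2B was 0.772 and 0.885 in pimasertib, 0.979 and 0.588 in palbociclib and 3.17 and 2.19 in DMSO, so RRM2 exceeded RRM2B in the DMSO libraries and not in the drug libraries.

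**Figure D2:**
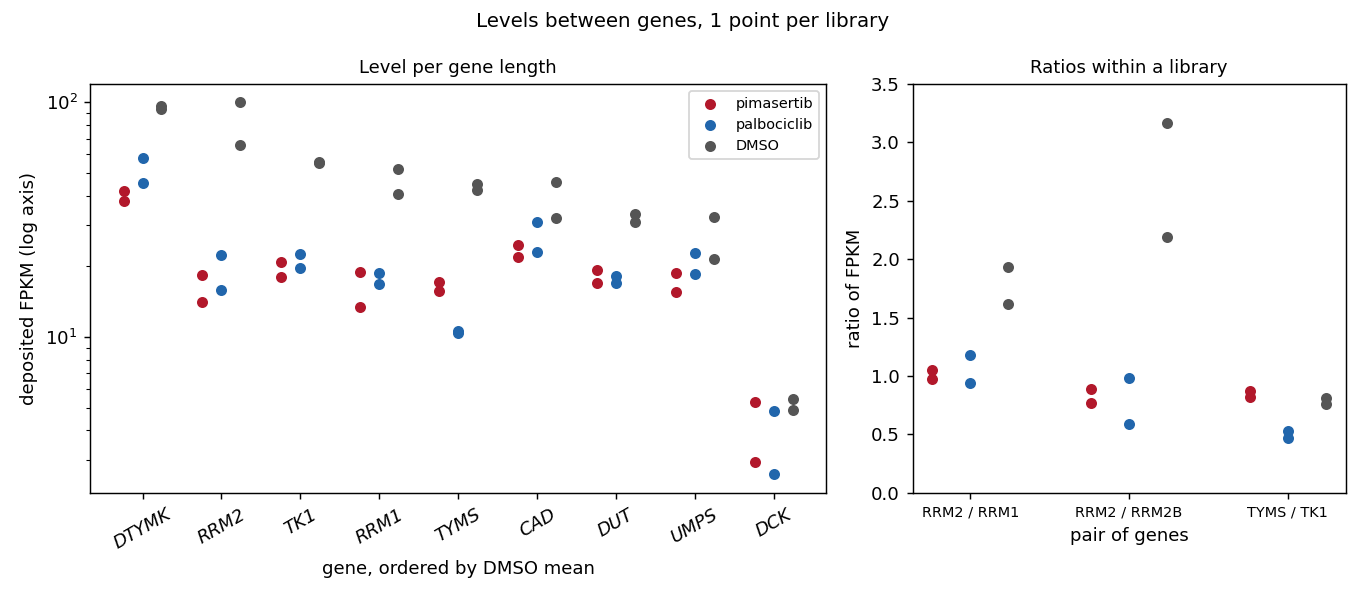
Left, FPKM of each member per library on a log axis, ordered by the DMSO mean; right, ratios of FPKM within a library for 3 pairs of genes, on an axis from 0, with 2 points per group. RRM2 over RRM2B is below 1 in all 4 drug libraries and 3.17 and 2.19 in DMSO, and TYMS over TK1 is lowest in palbociclib.

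Of the thymidylate genes, TYMS and TK1 fell most. TYMS, thymidylate synthase and the target of fluorouracil (ENSG00000176890, on the plus strand of chromosome 18 from 657604 to 673578), was at 27.8 and 26.5 CPM in pimasertib, 17.3 and 17.2 CPM in palbociclib and 75.8 and 71.2 CPM in DMSO. Replicates of each group lay close together and the 3 groups did not overlap, with palbociclib lowest. It had a log2 fold change of -1.44 (SE 0.19; adjusted p = 6.70e-04) in pimasertib and -2.09 (SE 0.20; adjusted p = 9.74e-04) in palbociclib. The gene shares 1036 bases with ENOSF1 on the opposite strand, which had 169 and 278 counts in pimasertib, 149 and 367 in palbociclib and 258 and 332 in DMSO; the sources used here do not state whether counting used strand, so which gene the reads of the shared stretch came from cannot be told apart.

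TK1, the cytosolic thymidine kinase of S phase (ENSG00000167900, on the minus strand of chromosome 17 from 76170160 to 76183314), was at 34.2 and 30.8 CPM in pimasertib, 32.9 and 37.1 CPM in palbociclib and 94.6 and 95 CPM in DMSO. The 4 drug libraries lay between 30.8 and 37.1 CPM and did not separate by drug, while the DMSO libraries were nearly equal. Its log2 fold change came to -1.54 (SE 0.20; adjusted p = 5.31e-04) in pimasertib and -1.44 (SE 0.20; adjusted p = 0.00307) in palbociclib. The FPKM ratio of TYMS to TK1 was 0.822 and 0.869 in pimasertib, 0.533 and 0.469 in palbociclib and 0.811 and 0.758 in DMSO. TYMS thus stood lower relative to TK1 in the palbociclib libraries than in the other 4. Dropping any 1 library left the calls of TYMS and TK1 in place.

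DTYMK, thymidylate kinase (ENSG00000168393, on the minus strand of chromosome 2 from 242615157 to 242626406), was at 50.7 and 47.2 CPM in pimasertib, 71.2 and 54.5 CPM in palbociclib and 121 and 117 CPM in DMSO. It fell by 1.28 on the log2 scale in pimasertib (SE 0.21; adjusted p = 0.00218) whichever library was dropped. In palbociclib the log2 fold change was -0.92 (SE 0.21; adjusted p = 0.0392). That call ended when DMSO replicate 1 was dropped (adjusted p = 0.0906), likewise palbociclib replicate 2 (0.271) or pimasertib replicates 1 (0.0862) and 2 (0.0886), and with the 4 libraries of the comparison (0.0863).

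DUT, the dUTPase (ENSG00000128951, on the plus strand of chromosome 15 from 48623208 to 48635570), was at 40.6 and 37.1 CPM in pimasertib, 38.9 and 35.7 CPM in palbociclib and 72.7 and 67.2 CPM in DMSO. All drug libraries lay between 35.7 and 40.6 CPM, below both DMSO libraries. The log2 fold change was -0.85 (SE 0.19; adjusted p = 0.0111) in pimasertib, a call that ended on dropping DMSO replicate 1 (adjusted p = 0.0558), pimasertib replicate 1 (0.053) or pimasertib replicate 2 (0.0987). In palbociclib it was -0.91 (SE 0.19; adjusted p = 0.0289), and it passed on dropping 1 library in only 1 of 6 cases, that of DMSO replicate 2. The adjusted p was 0.11 without DMSO replicate 1, 0.0625 and 0.19 without palbociclib replicates 1 and 2, 0.0622 and 0.0625 without pimasertib replicates 1 and 2, and 0.0588 with the 4 libraries of the comparison. Copies of DUT and RRM2 named as pseudogenes in the files had at most 4 counts in any library.

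DCK, the deoxycytidine kinase that activates cytarabine and gemcitabine (ENSG00000156136, on the plus strand of chromosome 4 from 71858255 to 71896631), was the lowest member per gene length. It was at 14.0 and 8.09 CPM in pimasertib, 7.04 and 12.8 CPM in palbociclib and 15.1 and 13.5 CPM in DMSO. Replicates within a drug differed by more than the groups did, in opposite order in the 2 drugs. The log2 fold change was -0.37 (SE 0.34; adjusted p = 0.471) in pimasertib, with a 95% interval of -1.13 to 0.40, and -0.52 (SE 0.35; adjusted p = 0.481) in palbociclib, with an interval of -1.28 to 0.25. Both intervals include no change and also the value of DUT in the same drug, so neither is excluded for DCK. The gene overlaps MOB1B on the same strand over 29912 bases, so how the counting split reads between them is uncertain; MOB1B had 646 and 395 counts in pimasertib, 651 and 926 in palbociclib and 553 and 439 in DMSO.

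The pyrimidine ring genes lay lower by less. CAD, the enzyme of the opening steps of pyrimidine synthesis (ENSG00000084774, on the plus strand of chromosome 2 from 27440258 to 27466811), was at 175 and 162 CPM in pimasertib, 224 and 164 CPM in palbociclib and 339.9 and 237 CPM in DMSO. The drug libraries were below both DMSO libraries, but DMSO replicate 2 lay close to palbociclib replicate 1. CAD had a log2 fold change of -0.78 (SE 0.26; adjusted p = 0.0533) in pimasertib and -0.57 (SE 0.26; adjusted p = 0.274) in palbociclib. With a replicate block in edgeR's test it passed in pimasertib (adjusted p = 2.93e-04) and in palbociclib (0.00654). In pimasertib CAD lay just short of the threshold and passed without DMSO replicate 2 (adjusted p = 0.0136) or palbociclib replicate 1 (0.0351), with DESeq2 (0.0217) and with low counts left unfiltered (0.0337). In the authors' deposited table CAD was called lower in pimasertib, with an adjusted p of 0.0208. The calls of the other members there, and of all members in the authors' palbociclib table, were the same as here.

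UMPS, the enzyme that completes UMP (ENSG00000114491, on the plus strand of chromosome 3 from 124449213 to 124464040), was at 48.8 and 42.0 CPM in pimasertib, 60.4 and 48.2 CPM in palbociclib and 88.0 and 58.4 CPM in DMSO. Palbociclib replicate 1 lay above DMSO replicate 2, while both pimasertib libraries were below DMSO. UMPS had a log2 fold change of -0.69 (SE 0.24; adjusted p = 0.0661) in pimasertib and -0.43 (SE 0.24; adjusted p = 0.386) in palbociclib. A replicate block in edgeR's test brought it past the threshold in pimasertib (adjusted p = 0.00129) and in palbociclib (0.0469). In pimasertib it passed without DMSO replicate 2 (adjusted p = 0.0115) or palbociclib replicate 1 (0.0402) and with low counts left unfiltered (0.0459).

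**Figure D3:**
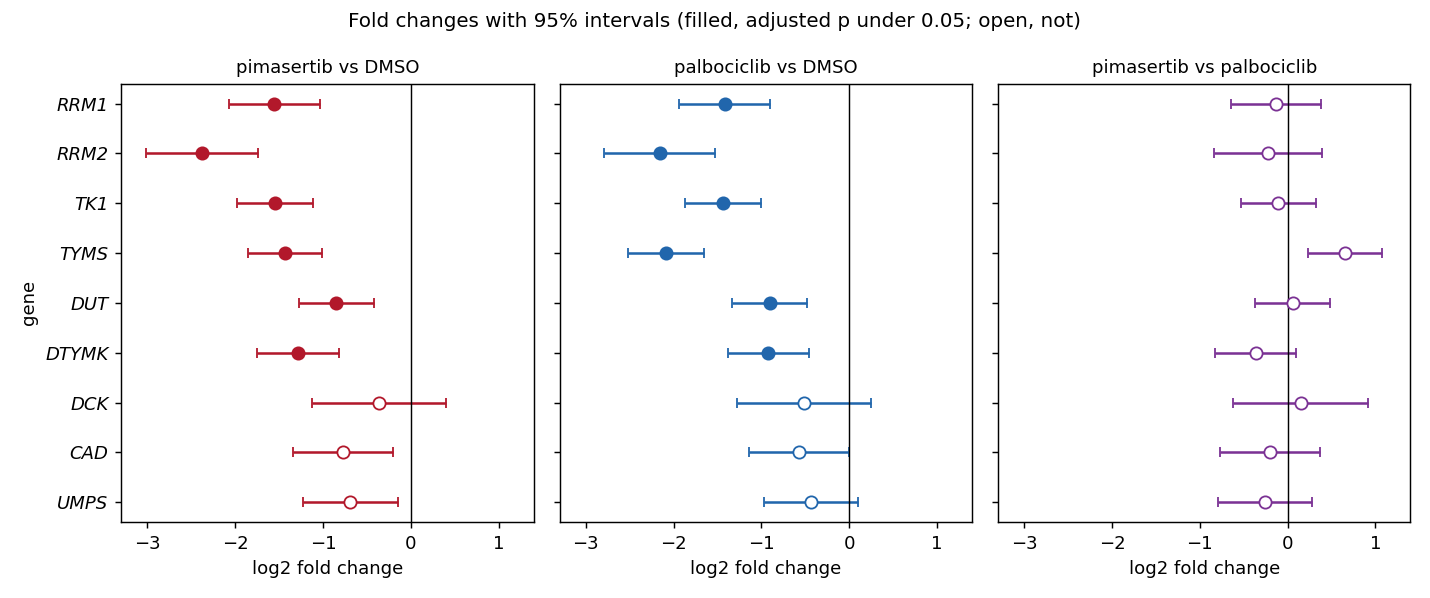
Log2 fold change of each member with its 95% interval in 3 comparisons, pimasertib against DMSO, palbociclib against DMSO and pimasertib against palbociclib, filled where the adjusted p is under 0.05. RRM1, RRM2, TK1, TYMS, DUT and DTYMK are filled in both drug comparisons, and no member is filled in the comparison of the drugs, where TYMS is the member furthest to the right at 0.65.

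The drugs were compared with each other directly, pimasertib over palbociclib. No member passed by edgeR's quasi-likelihood test, where 9.39% of all tested genes did; 1 member, TYMS, had an unadjusted p under 0.05, and DESeq2 also called 0. TYMS was at 27.1 ± 0.975 CPM in pimasertib and 17.3 ± 0.0806 CPM in palbociclib (SD, n = 2 each), with a log2 difference of 0.65 (SE 0.19; adjusted p = 0.0609) and a 95% interval of 0.23 to 1.08. It passed with a minimum count of 50 (adjusted p = 0.0391) and with a replicate block (0.00321), both in edgeR's test. DTYMK had the largest difference the other way, -0.36 with an interval of -0.82 to 0.10 and an adjusted p of 0.314, its 2 pimasertib libraries both below the palbociclib ones. For RRM2 the interval was -0.84 to 0.39, for RRM1 -0.65 to 0.38, for TK1 -0.54 to 0.32 and for DUT -0.37 to 0.48. For DCK it was -0.62 to 0.92, for CAD -0.77 to 0.36 and for UMPS -0.79 to 0.28. A missed threshold does not show that the drugs act alike on these genes.

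The order of levels per gene length in DMSO, by FPKM, was DTYMK, RRM2, TK1, RRM1, TYMS, CAD, DUT, UMPS and DCK, with means from 94.9 for DTYMK to 5.16 for DCK. The 2 DMSO libraries of DTYMK and RRM2 overlapped, as did those of RRM1 and TYMS, TYMS and CAD, CAD and DUT, and DUT and UMPS, so the ranges do not separate these neighbours. Within each DMSO library, however, CAD was above DUT and DUT above UMPS, whereas DTYMK and RRM2, RRM1 and TYMS, and TYMS and CAD changed places between the 2 libraries. TK1 lay apart from RRM2 and RRM1, and DCK from UMPS. In pimasertib and palbociclib DTYMK stayed highest, at 39.9 and 51.5 FPKM, and CAD was next, at 23.3 and 26.9 FPKM. Over all 9 members the summed level was 516 and 449 CPM in pimasertib, 592 and 479 CPM in palbociclib and 1348 and 1036 CPM in DMSO.

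Lists of other nucleotide genes were read alongside, each count to be set against the 11.7% of all tested genes called lower in pimasertib and the 2.44% in palbociclib. Folate enzymes pass on the carbon unit for thymidylate and purines. Of 9 folate genes tested, a list that includes the carrier SLC19A1, 3 fell in pimasertib (median log2 fold change -0.57). In palbociclib 1 fell (median -0.70). The 3 in pimasertib were MTHFD1L (-1.34, adjusted p = 0.00141), MTHFD2 (-1.28, adjusted p = 0.00706) and MTHFD1 (-0.83, adjusted p = 0.0383), enzymes that interconvert folate units. MTHFD2 missed the threshold without pimasertib replicate 2 (adjusted p = 0.0946), and MTHFD1 missed it without DMSO replicate 1 (0.243), pimasertib replicate 1 (0.0776) or pimasertib replicate 2 (0.275). In palbociclib it was SLC19A1, the reduced folate carrier (-1.14, adjusted p = 0.0229), which missed it without DMSO replicate 2 (0.0522) or palbociclib replicate 2 (0.0655).

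Of 15 purine genes 4 fell and 1 rose in pimasertib (median -0.41), and in palbociclib edgeR called 0 (3 at an unadjusted p under 0.05, and 1 higher with DESeq2; median -0.21). The fallen genes were PAICS (-1.16, adjusted p = 0.00858), PFAS (-1.12, 0.0111), GMPS (-1.04, 0.0238) and PPAT (-0.70, 0.0384), enzymes of new purine synthesis. The gene that rose was the salvage enzyme APRT (0.65, adjusted p = 0.0421). Leaving out pimasertib replicate 2 ended all 5 calls, with adjusted p of 0.111, 0.0899, 0.201, 0.26 and 0.0966 in the order named. The number lower was 2 without DMSO replicate 1 and 1 without pimasertib replicate 1, and APRT passed only without palbociclib replicate 2. PAICS itself was lost in no other of these fits.

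Of 8 other pyrimidine genes, 2 fell and 1 rose in pimasertib, and edgeR called 0 in palbociclib (2 at an unadjusted p under 0.05, 1 lower with DESeq2). CTPS1, which makes CTP from UTP, was at 65.6 and 50.7 CPM in pimasertib, 120.1 and 96.7 CPM in palbociclib and 220.4 and 164 CPM in DMSO. The groups were ordered without overlap, lowest in pimasertib and highest in DMSO. Its log2 fold change was -1.73 (SE 0.25; adjusted p = 0.00103) in pimasertib whichever library was dropped, and -0.83 (SE 0.24; adjusted p = 0.0983) in palbociclib. UCK2, a uridine and cytidine kinase (-0.92, adjusted p = 0.0113), missed the threshold without DMSO replicate 1 (0.0883), pimasertib replicate 1 (0.055) or pimasertib replicate 2 (0.106). TYMP, which breaks thymidine down, rose by 2.34 on the log2 scale (adjusted p = 0.0449) against a level under 1 CPM in both DMSO libraries, and lost its call in the same 3 fits (0.236, 0.0794 and 0.368).

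Of 12 tested genes of other dNTP steps, 2 fell in pimasertib and 1 in palbociclib, with medians of -0.32 and -0.09, and the pimasertib count is near the share of all genes called lower. In palbociclib this was SLC29A1, the nucleoside transporter ENT1, at 85.6 and 133 CPM in pimasertib, 48.8 and 55.9 CPM in palbociclib and 112 and 156 CPM in DMSO. It fell in palbociclib with a log2 fold change of -1.35 (SE 0.27; adjusted p = 0.0204) whichever library was dropped, while its pimasertib libraries overlapped DMSO (-0.29, adjusted p = 0.453). In pimasertib DCTPP1 (-0.74, adjusted p = 0.0394) and NT5C (-0.66, 0.0378), which remove phosphate from nucleotides, each passed in only 1 of 6 fits on 5 libraries, that without palbociclib replicate 1; their largest adjusted p were 0.235 and 0.189, both without pimasertib replicate 2. SAMHD1, which breaks down dNTPs, did not pass, at 0.19 in pimasertib and 0.30 in palbociclib (adjusted p = 0.647 and 0.609).

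**Figure D4:**
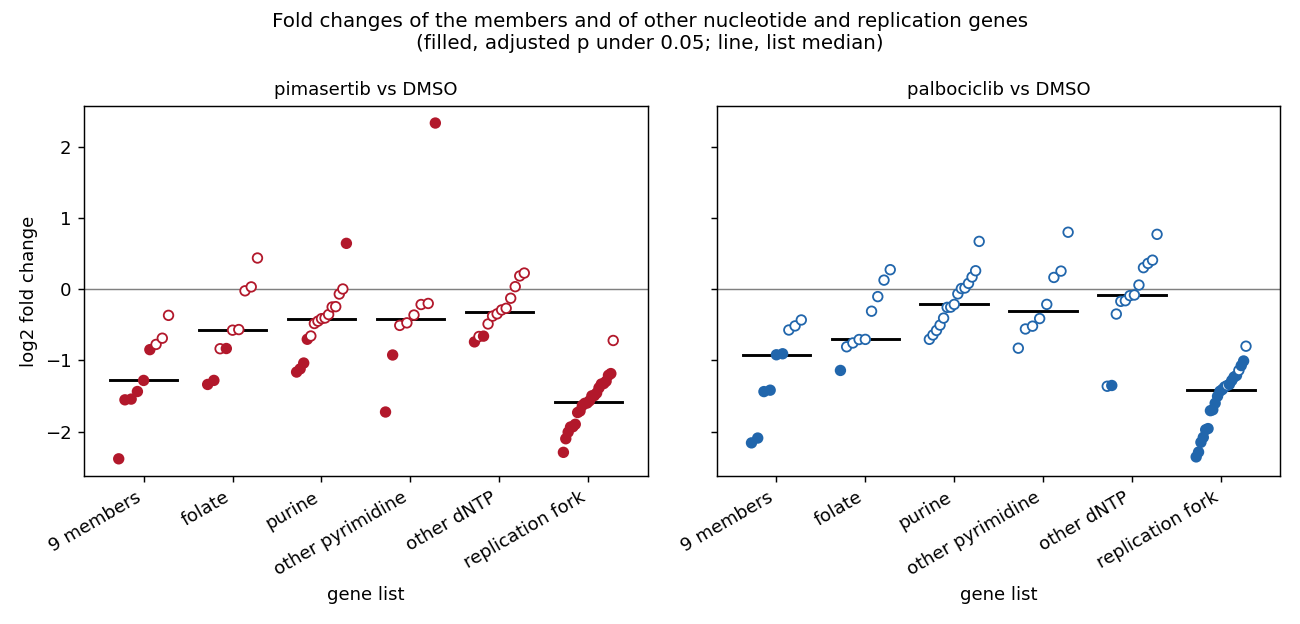
Log2 fold change of every tested gene of 6 lists in pimasertib against DMSO and palbociclib against DMSO, sorted within a list, filled where the adjusted p is under 0.05, with a line at the list median. By list median, the members (-1.28 and -0.92) lie between the replication fork genes (-1.58 and -1.42) and the other lists. The medians of the folate, purine, other pyrimidine and other dNTP lists run from -0.70 to -0.09. Single genes overlap between lists. In pimasertib the members run from -2.38 to -0.37 and the replication fork genes from -2.29 to -0.72.

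Beside the counts below, 11.7% of all tested genes were called lower in pimasertib and 2.44% in palbociclib. Both drug libraries lay below both DMSO libraries for 32.6% of all tested genes in pimasertib and 23.3% in palbociclib. Genes of the replication fork fell in both drugs. Of 22 tested, 21 fell in pimasertib and 19 in palbociclib (12 without palbociclib replicate 2), and all 22 had both drug libraries below both DMSO libraries for each drug. The 4 with the largest falls in each drug were MCM10, CDC45, MCM2 and ORC1, which are parts of the replicative helicase or help to load or activate it. Their log2 fold changes were -2.29, -2.10, -2.01 and -1.94 in pimasertib (adjusted p = 2.97e-04, 5.23e-04, 4.72e-04 and 0.00112) and -2.36, -2.15, -2.08 and -2.29 in palbociclib (adjusted p = 0.00163, 0.00233, 0.00206 and 0.00246). Of 6 E2F and MYC genes, 4 fell in pimasertib and 2 in palbociclib, and MYC passed in neither, at -0.16 and 0.53 (adjusted p = 0.643 and 0.247). E2F1, at 11.2 and 9.96 CPM in pimasertib, 22.2 and 18.1 CPM in palbociclib and 78.3 and 54.7 CPM in DMSO, had a log2 fold change of -2.65 (SE 0.25; adjusted p = 9.88e-05) in pimasertib and -1.72 (SE 0.24; adjusted p = 0.00319) in palbociclib. E2F2 had -2.33 (SE 0.38; adjusted p = 0.00214) and -3.75 (SE 0.42; adjusted p = 0.00163) in the same order, and these 4 calls held whichever library was dropped. E2F7 (-0.75, adjusted p = 0.0245) and E2F3 (-0.69, 0.0329) were also lower in pimasertib. Both missed the threshold without DMSO replicate 1 (adjusted p = 0.0601 and 0.196) or without pimasertib replicate 1 (0.124 and 0.111) or 2 (0.134 and 0.181), and E2F7 also without DMSO replicate 2 (0.0717). The part of these regulators in the members' levels was not tested.

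By likeness over the 6 libraries, the mean centred log2 CPM of RRM1, RRM2, TK1, TYMS, DUT and DTYMK was closest to that of CDT1, SHCBP1, MCM2, FANCI and TCF19 among 8931 protein-coding genes at a mean of 10 CPM or more, with Pearson r of 0.999, 0.998, 0.996, 0.996 and 0.996. CDT1, a licensing factor of replication origins, was at 22 and 18.7 CPM in pimasertib, 21.0 and 18.5 CPM in palbociclib and 61.4 and 50.4 CPM in DMSO. The mean of CAD and UMPS was closest to LARP1, RANGAP1, EXOSC3, NSD1 and XPO6, with r of 0.997, 0.995, 0.995, 0.995 and 0.995. That profile turned on the gap between the DMSO libraries as well as on the drugs, with centred values of -0.23 and -0.39 in pimasertib, 0.10 and -0.28 in palbociclib and 0.68 and 0.12 in DMSO. The genes of the first profile are also the members called lower in both drugs, with DCK left out, so a fall from DMSO to the drugs was built into it. These 6 points share the group structure and the replicate difference, so the r values are descriptions.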

How the data were processed

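RNA-seq of 6 HT-1080 libraries was used. The authors deposited 1 table per drug with raw read counts per gene and FPKM for that drug and DMSO, per the file headers; the log2 ratios and both raw and adjusted p-values in them are the authors' own, as are the group means of scaled counts (a signal column, not used here), per the file headers. Per the submitters' processing notes, the tools were CASAVA, STAR 2.5, HTSeq 0.6.1 and DESeq2, with builds hg19 and GRCh37, listed without order or settings. The tables held 23914 and 24931 genes, with identical DMSO counts for the 22559 shared genes; a gene missing from 1 table was counted 0 there.

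Counts were tested with edgeR 4.0.16 (R 4.3.3): filterByExpr (minimum count 10, minimum total 15), TMM scaling, 1 model of 3 groups over 6 libraries (glmQLFit, robust), glmQLFTest, two-sided, Benjamini-Hochberg over 14839 genes, threshold 0.05. SE is the absolute log2 fold change over the square root of F; log2 CPM used a prior count of 2. The procedure was tested on simulated libraries, drawn independently with a spread common to all genes. That simulation held no replicate deviations shared between groups, which these libraries show, so it does not cover them. FPKM served only to compare genes by level. The CPM worth of 3 counts speaks to counting error alone, as PCR copies of a molecule are not separate molecules.

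The members and lists were chosen with earlier results of these data known. Named are all 9 members, RRM2B, up to 4 called genes per companion list, drug and direction, and the 5 genes most alike; other genes named give context. NME2 was in no table. A listed gene is not reported here and was left out of the list counts. Alternatives were DESeq2 1.42.0, other scaling and filters, the 4 libraries of a comparison, a replicate block and leaving out each library.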

Additional observations from a re-analysis of the deposited data

Results flagged for a closer look

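By edgeR's quasi-likelihood test of pimasertib over palbociclib, no member and 5 genes of the companion lists differed, beside 9.39% of all tested genes. Called lower were 1 of 8 other pyrimidine genes, 1 of 9 folate genes and 1 of 6 E2F and MYC genes. Of 12 other dNTP genes, 1 was lower and 1 higher. Of 15 purine and 22 replication fork genes, 0 were called. The log2 difference was -0.97 (SE 0.26; adjusted p = 0.0438) for MTHFD2, a mitochondrial folate enzyme, at 33.1 and 24.5 CPM in pimasertib and 67.5 and 45.7 CPM in palbociclib. For CTPS1 it was -0.90 (SE 0.24; adjusted p = 0.0444). Both missed the threshold on dropping palbociclib replicate 1 (adjusted p = 0.254 and 0.217), as on dropping pimasertib replicate 1 (0.0967 and 0.109) and on dropping pimasertib replicate 2 (0.343 and 0.346). For NME1, a nucleoside diphosphate kinase, it was -0.85 (SE 0.20; adjusted p = 0.0264), at 16.9 and 16.0 CPM in pimasertib and 29.8 and 29.5 CPM in palbociclib. NME1 did not pass without palbociclib replicate 1 (adjusted p = 0.098) or 2 (0.0654) or pimasertib replicate 1 (0.114) or 2 (0.185), and reads of its near-identical neighbour NME2 may be counted with it. For SLC29A1 it was 1.06 (SE 0.27; adjusted p = 0.0323), not passing without palbociclib replicate 1 (adjusted p = 0.0952) or pimasertib replicate 2 (0.316). For E2F1 it was -0.92 (SE 0.24; adjusted p = 0.0392), not passing when palbociclib replicate 1 (0.162), pimasertib replicate 1 (0.133) or pimasertib replicate 2 (0.274) was dropped.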

How the results depend on the processing

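The members called lower numbered 4 to 8 in palbociclib and 5 to 8 in pimasertib over all alternatives, and RRM1, RRM2, TK1 and TYMS passed in each of the 13 alternatives in both drugs. In palbociclib, 526 genes were called, against 882 with DESeq2, 1097 with no filter, 325 with the 4 libraries of the comparison and 334 to 762 when 1 library was left out. In pimasertib the 3376 genes became 1055 to 4082 when 1 library was left out. Between the drugs the 1393 genes became 2256 with no filter and 456 to 1941 when 1 library was left out; 1 member was higher with a minimum count of 50, against 0 as reported.

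Same-numbered replicates deviated together (r of 0.345 to 0.397 over 14839 genes between groups), but with 2 per group the labels do not pair them. With a replicate block 8 members were lower in pimasertib and 8 in palbociclib, as CAD (adjusted p = 2.93e-04 and 0.00654) and UMPS (0.00129 and 0.0469) then also passed in edgeR's test. With it 1 member, TYMS (0.00321), was higher in pimasertib over palbociclib, and 6551, 2953 and 4702 genes were called in pimasertib, in palbociclib and between the drugs. The cause was not tested. Between the drugs, uncalled log2 differences changed sign when 1 library was left out, with ranges of -0.39 to 0.069 for RRM1 (highest without pimasertib replicate 2), -0.44 to 0.048 for RRM2 (highest without palbociclib replicate 1), -0.019 to 0.12 for DUT (lowest without pimasertib replicate 1), -0.31 to 0.67 for DCK (-0.22 without palbociclib replicate 1, -0.31 without pimasertib replicate 1) and -0.39 to 0.034 for CAD (highest without palbociclib replicate 1). The alternatives for RRM2B and the companion lists were added after seeing the data. With 2 libraries a group, the DCK intervals against DMSO include no change in both drugs.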
